A study of Mus musculus with 8 samples.

Results

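Prdm16, Ebf2, Ppargc1a, Ppargc1b, Zic1, Lhx8, Esrra, Esrrg, Ppara and Irf4, transcriptional regulators associated with brown fat identity, were examined in brown adipose tissue of mice lacking the histone demethylase Lsd1 (gene symbol Kdm1a). These 10 genes were taken by name from 23372 genes with a symbol, and each is represented by its transcript row with the most reads. All 10 passed the filter on low counts, which kept 14178 genes in all. RNA-seq libraries came from C57BL/6 N mice at 10 weeks of age. The 4 control mice (libraries 511, 514, 517 and 518) were described as Lsd1 floxed, and the 4 knockout mice (libraries 512, 513, 515 and 516) carried the floxed alleles with Cre recombinase under the Ucp1 promoter. The labels describe the controls by the floxed allele and name Cre for the knockout cross, so loss of Lsd1 and presence of Cre cannot be told apart. The Ucp1 promoter is active in brown adipocytes, and the other cells of the depot keep the gene.

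Brown adipocytes arise from precursors that switch on a set of transcription factors and coregulators, which then sustain the mitochondrial and thermogenic genes of the mature cell. EBF2 and PRDM16 are placed at the head of that programme, EBF2 as a DNA-binding factor of precursors and adipocytes and PRDM16 as a zinc finger protein that activates brown genes and helps silence white and muscle genes. PGC-1α and PGC-1β, the products of Ppargc1a and Ppargc1b, are coactivators that work with the estrogen-related receptors ERRα (Esrra) and ERRγ (Esrrg) and with PPARα (Ppara) to drive oxidative metabolism. IRF4 cooperates with PGC-1α in thermogenic transcription and is also a factor of lymphocytes and macrophages. ZIC1 and LHX8 are markers of classical brown fat. LSD1 removes methyl groups from histone H3 and has been described as a partner of PRDM16.

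Of these regulators, 2 were lower in knockout tissue and 0 were higher at an adjusted p under 0.05 by edgeR's quasi-likelihood test, and 8 were not called. Among all tested genes, 18.9% were called lower, 15.4% higher and 34.4% in either direction, so the members' count is near the background for lower calls and below it for calls in either direction. Before adjustment 3 members had an edgeR p under 0.05, all of them lower, and 0 were higher. The share of all genes with an unadjusted p under 0.05 was not computed. Among the members DESeq2 called 2 lower and 0 higher, and limma-voom called 3 lower and 0 higher. Over all tested genes DESeq2 called 2841 lower and 2545 higher, and limma-voom called 2844 lower and 2467 higher. The 2 lower genes were Prdm16 and Esrra. The median log2 fold change of the members was -0.12, against -0.0123 over all tested genes, and it was 0.08 when libraries were scaled by their sizes alone, a scaling that moved the median of all genes up by 0.199.

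**Figure D1:**
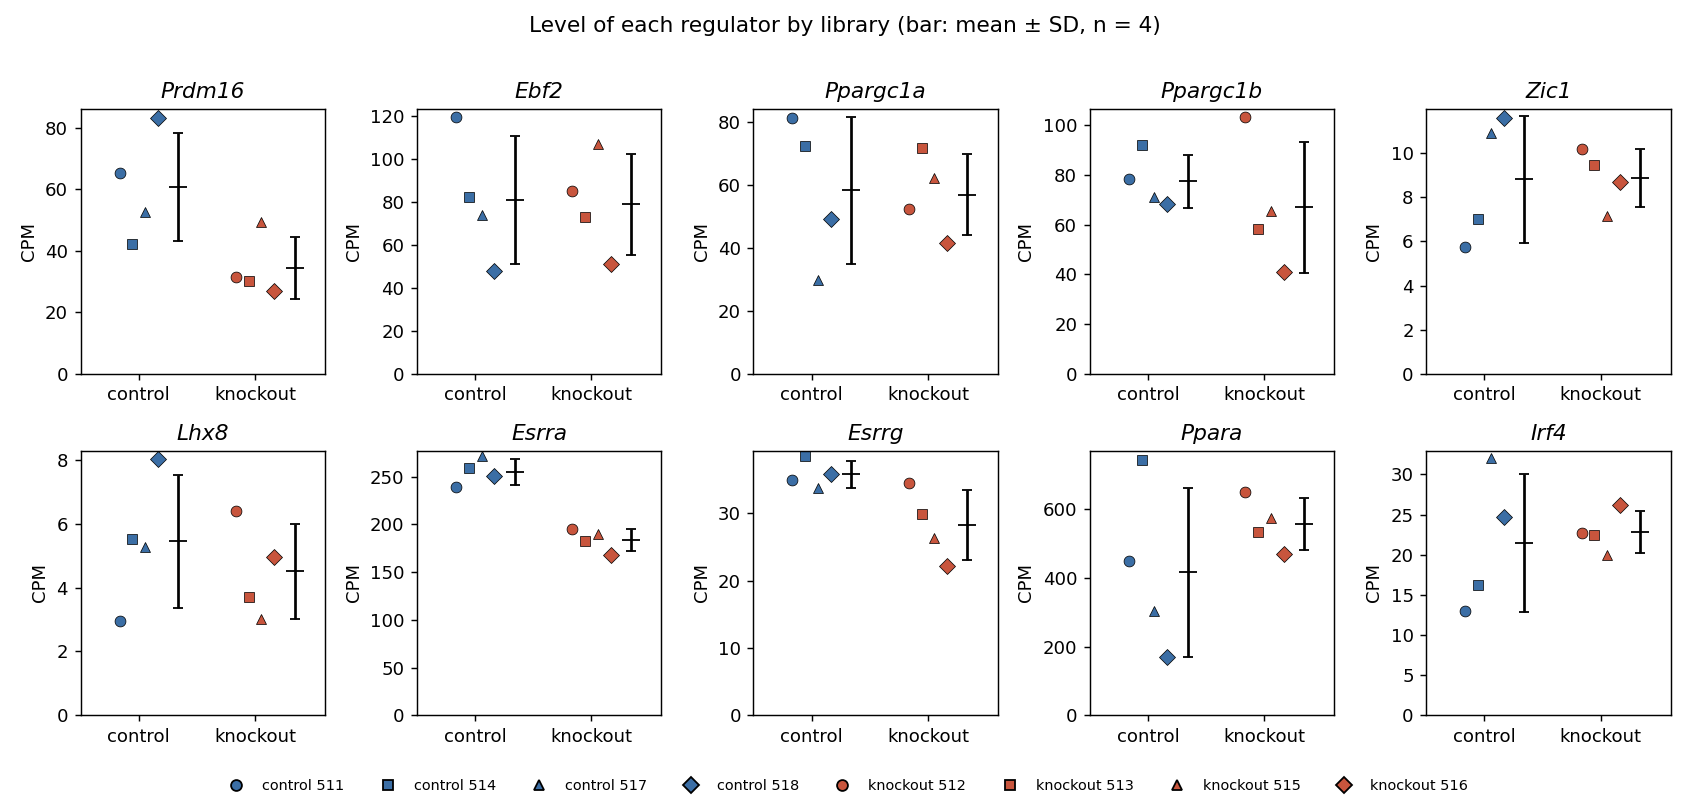
Level of the 10 regulators in each library in scaled counts (CPM, linear axes from 0). Points are libraries, and a shape shared by a control and a knockout library does not pair them. The black bar is the mean ± SD of 4 libraries. Esrra is the regulator whose groups do not overlap, while the controls spread widely for Ppara, from 169.2 to 741.9 CPM.

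Levels are CPM, counts divided by the TMM-scaled library size. Genes of the labelled tissue were detected. All 8 genes on a list of brown adipocyte markers had counts, with a summed level of 19651 to 26309 CPM in controls and 13300 to 15101 CPM in knockouts. Of the list, Ucp1, Cidea and Elovl3 are also among the brown selective genes below, and the others are not. Pparg is also on the lists of PRDM16 partners and of nuclear receptors below. Fabp4 made up much of the sum, with 8621 to 12628 CPM in controls and 5510 to 6534 CPM in knockouts. edgeR called 5 of the 8 lower and 0 higher (3 lower with library sizes alone), and Cidea, Adipoq and Plin1 were not called. Over all tested genes 2682 were lower in the main fit and 930 with library sizes alone. Kdm1a was at 33.3 to 36.9 CPM in controls and 12.2 to 14.0 CPM in knockouts. Skeletal muscle RNA differed between libraries. The mean log2 CPM of 15 muscle genes, used below as a muscle score, was 3.47 in control 514, 7.07 to 8.01 in the other controls and 8.18 to 9.28 in knockouts. Control 514 had the lowest score, and every knockout score was above every control score. edgeR called 2 of the 15 muscle genes higher and 0 lower, with a median log2 fold change of 1.53. Without control 514 the calls were 13 higher and 0 lower (median 1.14). By limma-voom with sample weights 15 were higher and 0 lower. The higher muscle RNA of knockouts was thus not limited to the contrast with control 514. In bulk tissue, fewer cells of a type and less RNA per cell cannot be told apart.

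Prdm16 (row chr4:154316125-154636873, minus strand, mm10, 17 exons) fell in the knockout. Its level was 65.5, 42.4, 52.5 and 83.2 CPM in controls 511, 514, 517 and 518, and 31.4, 30.3, 49.5 and 27.0 CPM in knockouts 512, 513, 515 and 516. Knockout 515 lay above control 514, so the groups overlapped by this pair, while the other knockout libraries were below every control. The control mean of 60.9 ± 17.6 CPM and the knockout mean of 34.5 ± 10.1 CPM (each SD, n = 4) differed 1.76-fold, with -0.82 ± 0.24 (SE) as the log2 fold change (edgeR adjusted p = 0.0276). The call was not firm. It ended with library sizes alone (-0.62, edgeR adjusted p = 0.0697) and without control 511, control 518, knockout 512, knockout 513 or knockout 516 (edgeR adjusted p = 0.0538, 0.0682, 0.0657, 0.075 and 0.0758). By limma-voom with sample weights the call held only at the threshold (-0.69, limma-voom adjusted p = 0.05 after rounding). Adjusted for the muscle score, its log2 fold change was -1.18 (edgeR adjusted p = 0.0109), and without control 514 it was -0.96 (edgeR adjusted p = 0.0133). Every knockout muscle score was above every control score, so the covariate was not independent of genotype. Control 514 had both the lowest score and the least Prdm16 of the controls.

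Esrra (row chr19:6910977-6921808, minus strand, 7 exons), which encodes the orphan nuclear receptor ERRα, was the regulator with the tightest values. Controls 511, 514, 517 and 518 held 239.2, 258.5, 271.9 and 250.1 CPM, and knockouts 512, 513, 515 and 516 held 195.1, 182.8, 189.4 and 167.6 CPM. Every knockout library was below every control, which was the case for 1 of the 10 members, while the groups did not overlap for 35.5% of all tested genes. The mean fell from 254.9 ± 13.8 to 183.7 ± 11.8 CPM (SD, n = 4), 1.39-fold lower, with a log2 difference of -0.47 ± 0.0721 (SE) and an edgeR adjusted p of 0.00163. The call held under each of the 16 alternative settings, with log2 fold changes from -0.50 to -0.28. Esrra exons share 3.26% of their bases with Trmt112 on the other strand, and the counts were made without regard to strand.

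Promoter sequences of the pair of called genes are shown because they carry many CpG dinucleotides, unlike those of some uncalled members. Each is the 250 bases before the transcription start on the gene's own strand, from RefSeq on GRCm38.p6, at chr4:154636874-154637123 (minus strand) for Prdm16 and chr19:6921809-6922058 (minus strand) for Esrra. Capitals mark CpG dinucleotides, a feature chosen after the sequences were seen.
Prdm16: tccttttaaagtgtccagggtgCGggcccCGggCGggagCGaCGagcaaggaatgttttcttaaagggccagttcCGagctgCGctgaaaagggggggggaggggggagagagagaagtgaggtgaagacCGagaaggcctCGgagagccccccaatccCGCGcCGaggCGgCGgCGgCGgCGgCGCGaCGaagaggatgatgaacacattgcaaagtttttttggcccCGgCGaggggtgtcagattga
Esrra: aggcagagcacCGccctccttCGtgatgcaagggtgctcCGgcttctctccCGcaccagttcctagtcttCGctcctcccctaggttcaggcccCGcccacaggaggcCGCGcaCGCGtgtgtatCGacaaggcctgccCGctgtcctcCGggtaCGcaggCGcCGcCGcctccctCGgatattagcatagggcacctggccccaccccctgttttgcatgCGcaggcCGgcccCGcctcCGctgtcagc
Both stretches hold 22 CpG, a number reached by 14.8% of the 32817 promoters in the table, whose median is 6. Zic1 and Ppara, which were not called, had 27 CpG each, while Ppargc1a had 5, Lhx8 had 4 and Irf4 had 11. The promoter of Ppargc1a is that of a start upstream of the counted row. The promoters of Esrrg, also not called, had from 9 to 22. CpG number thus did not separate called from uncalled members. The table held 8 of the 10 members, with 11 promoters of 300 bases (50 of them after the start). None of those promoters held an exact match, on either strand, to an ERR element (TCAAGGTCA, in 0.424% of all promoters), the nuclear receptor direct repeat DR1 (0.0396%), a palindromic EBF motif (0.905%) or an IRF motif of paired GAAA (3.43%), which says only that these letters are absent from these windows.

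Ebf2, the DNA-binding factor that marks brown precursors and adipocytes, was not called (row chr14:67233292-67429767, plus strand). It was at 119.8, 82.4, 74.2 and 48.0 CPM in controls 511, 514, 517 and 518 and at 85.2, 72.9, 107.2 and 51.0 CPM in knockouts 512, 513, 515 and 516. The ranges were nearly the same in both groups, and the difference on the log2 scale was -0.04 ± 0.285 (SE), with a 95% interval of -0.73 to 0.66 (edgeR adjusted p = 0.934). That interval includes changes of the size seen for Esrra. Of the exon bases of Ebf2, 9.74% are shared with a gene model on the other strand, Gm10860.

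Because PRDM16 acts downstream of EBF2, the ratio of their transcripts was formed within each library, where scaling between libraries cancels. The log2 ratio of Prdm16 to Ebf2 counts was -0.87, -0.96, -0.50 and 0.79 in the 4 controls and -1.44, -1.27, -1.12 and -0.92 in the 4 knockouts, in the library order used above. Knockout 516 lay just above control 514, and control 518 was the only library with more Prdm16 than Ebf2 counts. The mean ratio was lower by 0.80 in knockouts on the log2 scale, a difference that did not pass (exact two-sided permutation p = 0.0571, adjusted p = 0.171 over 3 ratios, smallest possible p = 0.0286). Without control 518 the difference was -0.41.

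**Figure D2:**
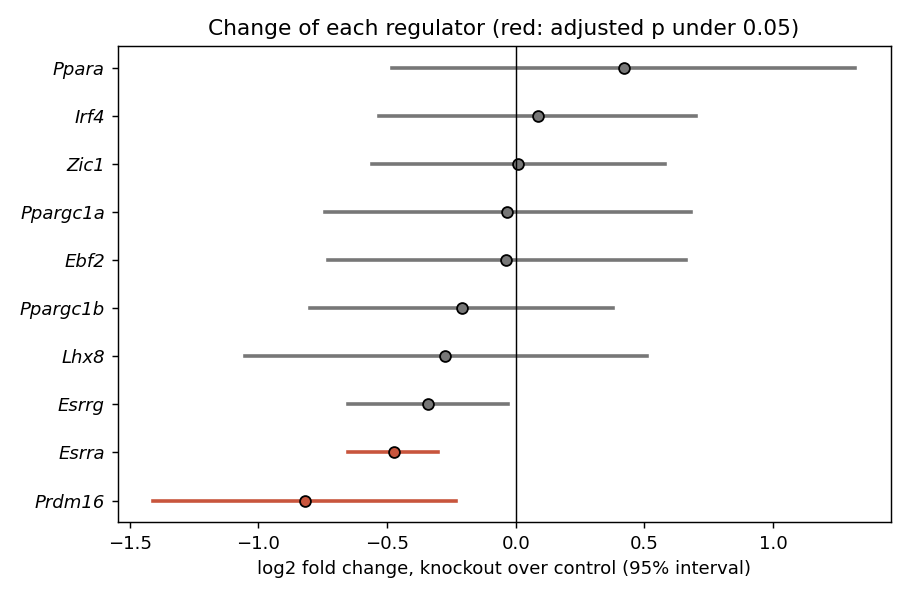
Log2 fold change of each regulator, knockout over control, with an approximate 95% interval (points: edgeR estimates, n = 4 libraries per group). Red marks an adjusted p under 0.05. The intervals of Prdm16 (-1.41 to -0.23) and Esrra (-0.65 to -0.30) lie below 0, as does that of Esrrg (-0.65 to -0.03), which did not pass the adjusted threshold.

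Neither PGC-1 coactivator gene was called. Ppargc1a (row chr5:51454249-51553921, minus strand) was at 81.4, 72.5, 29.9 and 49.2 CPM in controls 511, 514, 517 and 518 and at 52.4, 71.7, 62.2 and 41.5 CPM in knockouts 512, 513, 515 and 516. All knockout values fell inside the range of the controls, which spanned 2.72-fold, and the log2 fold change was -0.03 (95% interval -0.74 to 0.68, edgeR adjusted p = 0.941). The annotation places a further start of Ppargc1a upstream of the row, at the gene's end of 51567726 in GENCODE M21, so first exons there were not counted in this row.

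Ppargc1b, the PGC-1β gene, was at 78.4, 92.1, 71.2 and 68.3 CPM in controls 511, 514, 517 and 518 and at 103.4, 58.3, 65.6 and 40.9 CPM in knockouts 512, 513, 515 and 516. Knockout 512 exceeded every control and the other knockout libraries were below every control. The log2 fold change was -0.21 (95% interval -0.80 to 0.38, edgeR adjusted p = 0.53), and without knockout 512 it was -0.50 (edgeR adjusted p = 0.0592). Within libraries the log2 ratio of Ppargc1b to Ppargc1a was 0.50 ± 0.545 in controls and 0.18 ± 0.554 in knockouts (SD, n = 4, exact permutation p = 0.429, adjusted p = 0.429).

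Esrrg, the gene of ERRγ, moved in the direction of its paralog without passing. Its level was 35.0, 38.5, 33.7 and 35.9 CPM in controls 511, 514, 517 and 518 and 34.5, 29.9, 26.4 and 22.2 CPM in knockouts 512, 513, 515 and 516. Knockout 512 was within the control range and the other knockouts were below it. Its change of -0.34 ± 0.126 (SE) on the log2 scale had an edgeR adjusted p = 0.0619. It passed without knockout 512 (-0.46, edgeR adjusted p = 0.0179) and by limma-voom with sample weights (-0.39, limma-voom adjusted p = 0.0408). Whether the ERR genes changed by different amounts was tested by their ratio within libraries. The log2 ratio of Esrrg to Esrra was -2.83 ± 0.12 in controls and -2.72 ± 0.196 in knockouts (SD, n = 4), a difference of 0.11 that did not pass (exact permutation p = 0.371, adjusted p = 0.429).

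Ppara, the fatty acid-sensing receptor gene of oxidative tissues, was the most variable regulator in controls. Controls 511, 514, 517 and 518 held 448.8, 741.9, 303.7 and 169.2 CPM, a 4.38-fold range, and knockouts 512, 513, 515 and 516 held 650.4, 534.2, 575.4 and 468.4 CPM, a 1.39-fold range. Each knockout exceeded 3 of the controls and lay below control 514. The log2 fold change was 0.42 (95% interval -0.48 to 1.32, edgeR adjusted p = 0.401). Control 514, the library with the least muscle RNA, had the most Ppara. Without it the log2 fold change was 0.86 (edgeR adjusted p = 0.0477), and adjusted for the muscle score it was 1.28 (edgeR adjusted p = 0.0328). Under the other alternatives the adjusted p lay between 0.204 and 0.619. The part of the muscle RNA in the spread of Ppara was not tested beyond these fits, and muscle score and genotype were not independent here, since every knockout score was above every control score.

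**Figure D3:**
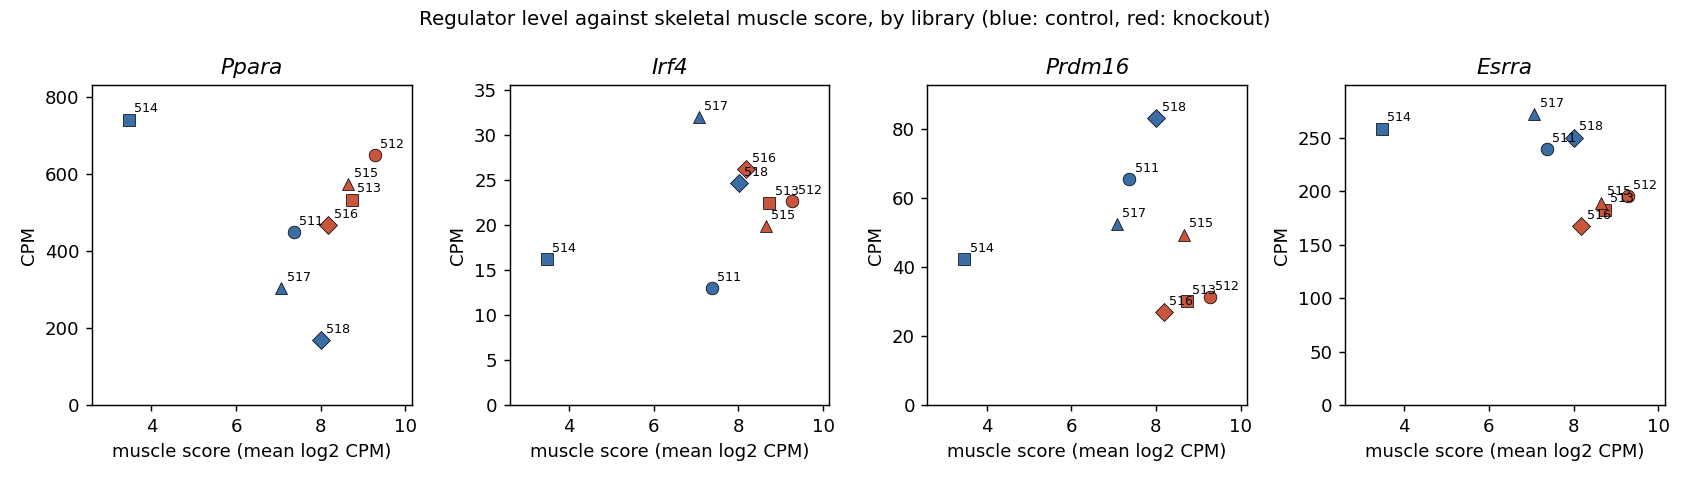
Level of Ppara, Irf4, Prdm16 and Esrra in CPM (linear axis from 0) against the skeletal muscle score of each library (mean log2 CPM of 15 muscle genes). Blue points are controls and red points knockouts, labelled by library number. Control 514, at a score of 3.47, has the highest Ppara level and the lowest Prdm16 level of the controls, while Esrra separates the groups without overlap.

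Irf4, which encodes an interferon regulatory factor used by brown adipocytes and immune cells, was at 13, 16.2, 32.0 and 24.7 CPM in controls 511, 514, 517 and 518 and at 22.7, 22.5, 19.9 and 26.2 CPM in knockouts 512, 513, 515 and 516. The knockouts lay inside the control range (log2 fold change 0.09, 95% interval -0.53 to 0.70, edgeR adjusted p = 0.811). Markers of cells that also express Irf4 varied between libraries too, without following it throughout. The 7 B lymphocyte and plasma cell markers, all detected, summed to 4.48 to 18.0 CPM in controls and 4.59 to 8.21 CPM in knockouts. The highest sum was in control 517, the library with the most Irf4, while knockout 516, with the next highest Irf4, had a sum of 5.5 CPM. Macrophage and dendritic cell markers, with 13 of 13 detected, summed to 116.4 to 215.6 CPM in controls and 208.2 to 317.2 CPM in knockouts, and 5 of the 11 tested were higher and 0 lower by edgeR (0 lower also before adjustment and by DESeq2 or limma-voom). The higher markers numbered 3 without control 514, 1 with the muscle covariate and 9 with library sizes alone. Of all tested genes 2189 (15.4%) were higher in the main fit and 4077 with library sizes alone. Without control 514 the number was 2095, and with the muscle covariate 1427. The part of these lymphocytes, macrophages and dendritic cells in the level of Irf4 was not tested.

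Zic1 and Lhx8, markers of classical brown fat, were the members with the lowest levels and had no call. Zic1 was at 5.73, 7.02, 10.9 and 11.6 CPM in controls 511, 514, 517 and 518 and at 10.2, 9.48, 7.14 and 8.67 CPM in knockouts 512, 513, 515 and 516. Its means were 8.82 and 8.88 CPM (log2 fold change 0.01, 95% interval -0.56 to 0.58, edgeR adjusted p = 0.978). Lhx8 was at 2.96, 5.51, 5.28 and 8.03 CPM in controls and 6.38, 3.69, 3.0 and 4.97 CPM in knockouts, in the same order, with 76.5 to 213 counts per library. Its log2 fold change was -0.27 with a 95% interval of -1.05 to 0.51 (edgeR adjusted p = 0.533), so a change of 2-fold downward lies within the interval. Fibroblast and preadipocyte markers, cells that can also express Zic1 and Ebf2, summed to 820.3 to 1706 CPM in controls and 1469 to 2205 CPM in knockouts, with 9 of 9 detected, and their part in these levels was not tested.

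Controls 511 and 514 differed from 517 and 518 across several regulators. Zic1 and Irf4 were higher in 517 and 518 than in 511 and 514, and Ebf2, Ppargc1a, Ppargc1b and Ppara were lower there. Prdm16, Lhx8, Esrra and Esrrg did not follow this split. It was picked after the values were seen, and its share over all genes was not computed. Control 518 had the highest Prdm16, Zic1 and Lhx8 of all libraries and the lowest Ppara and Ebf2. The SD of log2 CPM was larger in controls than in knockouts for 7 of the 10 members, and for 72.5% of all tested genes. Ppara had an SD of 0.901 in controls and 0.198 in knockouts, Irf4 had 0.583 and 0.162, and Ppargc1b went the other way with 0.191 and 0.551. The labels give no batch, litter or sampling day that would group these mice.

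Compared per kilobase of transcript, the regulators spanned more than an order of magnitude in level. The median in controls was 114.2 CPM per kb for Esrra and 50.6 for Ppara, followed by 20.6 for Ppargc1b, 18.2 for Ebf2, 9.40 for Ppargc1a, 6.88 for Prdm16, 6.64 for Esrrg, 4.38 for Irf4, 2.76 for Lhx8 and 2.68 for Zic1. Esrra was above Ppara in every control, and each later gene overlapped its neighbour in this order. The length used for Ppara was 7428 bases, against 3413 exon bases in its matching GENCODE M21 transcript, so its place depends on the length taken. In knockouts Esrra (83.6 CPM per kb) and Ppara (74.7) overlapped, and Prdm16 (3.60) came after Irf4 (4.84) with overlapping ranges. Esrra and Ppara were at the 95.2 and 92.2 percentile of all tested genes, Prdm16 at 44.3 and Zic1 at 29.2.

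The lists that follow are to be read beside all tested genes, of which 18.9% were called lower and 15.4% higher in the main fit. In counts these are 2682 lower and 2189 higher genes. With library sizes alone 930 genes were lower and 4077 higher, and the median log2 fold change of all genes was 0.186. Upper quartile factors gave 1625 lower and 2915 higher genes. The muscle covariate gave 1836 lower and 1427 higher genes, and leaving out control 514 gave 2435 and 2095. Partners and regulators of PRDM16 were called in both directions, as were genes in general. edgeR called 3 of the 14 tested genes lower and 1 higher, with a median of -0.14 on the log2 scale (0.06 with library sizes alone, where 1 was lower and 2 higher). Without control 514 the calls were 2 lower and 2 higher. The higher gene was Zfp516, a zinc finger activator of thermogenic genes that is also described as a partner of LSD1. It rose from 21.8, 17.4, 15.8 and 14.1 CPM in controls to 28.6, 30.8, 27.9 and 27.2 CPM in knockouts (log2 difference 0.73 ± 0.129, SE, edgeR adjusted p = 0.00313), with no overlap. Ehmt1, a histone methyltransferase of the PRDM16 complex, fell from 61.3 ± 3.38 to 45.1 ± 4.49 CPM (log2 fold change -0.44, edgeR adjusted p = 0.00431). Cul2, a ubiquitin ligase subunit that controls PRDM16 protein stability, fell from 71.6 ± 6.55 to 53.5 ± 3.04 CPM (log2 fold change -0.42, edgeR adjusted p = 0.00452), a call lost with library sizes alone (-0.22, 0.083). The uncalled genes numbered 10, Cebpb, Ctbp1, Ctbp2, Med1 and Tle3 among them.

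Among 25 regulators and partners of the PGC-1 coactivators, 3 were lower and 1 higher (median -0.05, or 0.15 with library sizes alone, where 1 was lower and 7 higher). Without control 514 the calls were 3 lower and 2 higher, and with the muscle covariate 4 and 2. Twist1, which binds PGC-1α and restrains its activity, rose from 11.7 ± 1.79 to 19.4 ± 1.51 CPM (log2 fold change 0.73, edgeR adjusted p = 0.00234). Lpin1, a phosphatidate phosphatase that can also coactivate PPARα, fell from 960.9 ± 195.3 to 564.3 ± 89.3 CPM (log2 fold change -0.77, edgeR adjusted p = 0.00808). Gabpa, the DNA-binding subunit of nuclear respiratory factor 2, fell from 124.0 ± 23.6 to 82.2 ± 5.54 CPM (log2 fold change -0.59, edgeR adjusted p = 0.0097), a call lost with library sizes alone (-0.40, 0.0603). The remaining lower gene, named after its value was seen, was the kinase gene Mapk14.

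The next list held nuclear receptors related to the members, their RXR partners, corepressors and Perm1, which is also on the ERR target list. It gave 4 lower genes among 13 and 0 higher ones by edgeR (0 higher before adjustment and by DESeq2, 1 by limma-voom). The median of the list was -0.17, and with library sizes alone it was 0.03 and none of the 4 calls was left, that is 0 lower. The lower genes numbered 3 without control 514 and 2 with the muscle covariate or upper quartile factors. Rxrb, which encodes an RXR partner of PPARs, fell from 97.2 ± 10.9 to 73.5 ± 2.47 CPM (log2 fold change -0.40, edgeR adjusted p = 0.00742), a call lost with the muscle covariate (0.0576). The other RXR genes, Rxra and Rxrg, were not called. Pparg, the adipogenic receptor, had a log2 fold change of -0.30 (edgeR adjusted p = 0.0279) that did not pass with library sizes alone (0.437), upper quartile factors (0.122) or the muscle covariate (0.139), nor without control 514, 517 or 518 or knockout 513, 515 or 516 (0.0569 to 0.0774).

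The paralogs of the members gave the largest change among related regulators. Ebf3, the paralog of Ebf2, fell from 101.6, 147.6, 118.7 and 133.1 CPM in controls 511, 514, 517 and 518 to 56.6, 50.3, 62.2 and 51.7 CPM in knockouts 512, 513, 515 and 516. The groups were well apart (log2 difference -1.18 ± 0.121, SE, edgeR adjusted p = 0.000339), and the call held under each alternative, although 11.9% of its exon bases are shared with Gm45278 on the other strand. Irf3 fell from 60.8 ± 7.65 to 43.8 ± 2.95 CPM (log2 fold change -0.47, edgeR adjusted p = 0.00649), a call lost with library sizes alone (-0.28, 0.0714), and Irf7 rose by 0.79 (edgeR adjusted p = 0.0303), a call lost with the muscle covariate (0.0923) and without control 511, 514 or 518 or knockout 513, 515 or 516 (0.0538 to 0.0804). In all 2 of 15 tested paralogs were lower and 3 higher, with 2 higher without control 514 and 1 with the muscle covariate. With library sizes alone 1 was lower and 3 higher.

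**Figure D4:**
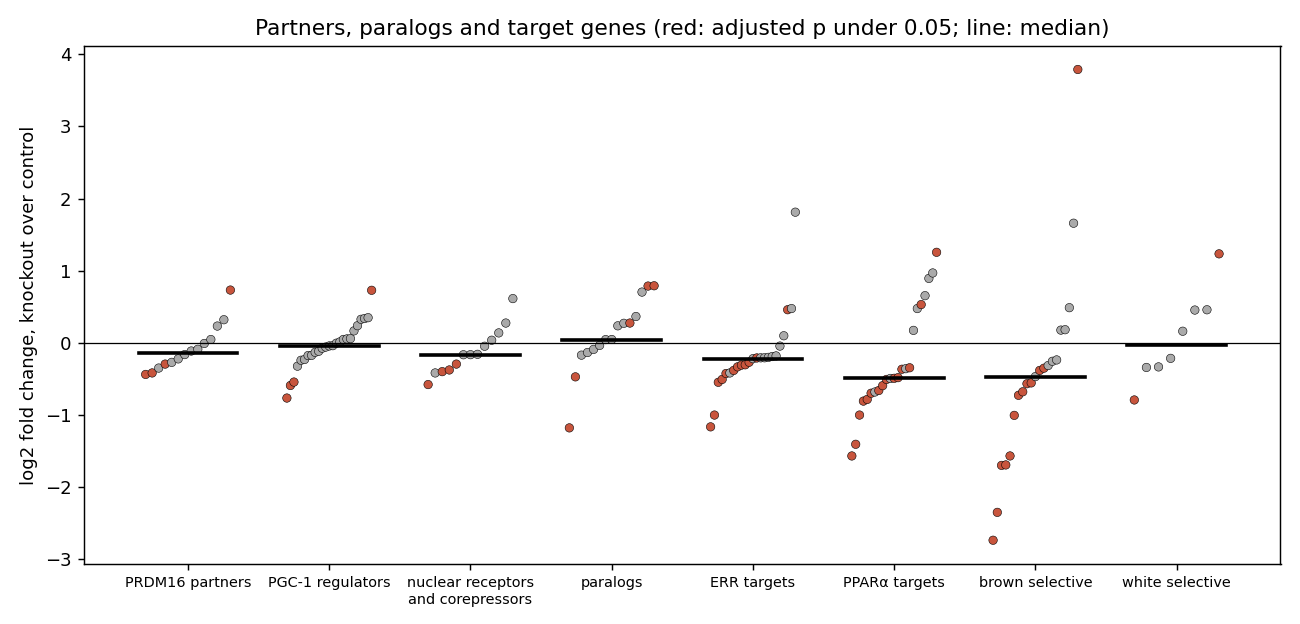
Log2 fold change, knockout over control, of each tested gene in 8 lists related to the regulators, sorted within a list. Red points have an edgeR adjusted p under 0.05, grey points do not, and the line is the list's median. The medians of PPARα targets (-0.49) and brown selective genes (-0.47) lie lowest, and those of PGC-1 regulators (-0.05) and white selective genes (-0.03) lie near 0.

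Among 23 known targets of ERR and PGC-1, edgeR called 11 lower and 1 higher (median -0.22). Scaled by library size only, the calls were 5 lower and 3 higher, around a median of -0.02. Idh3a, of the TCA cycle, fell from 2408 ± 188.6 to 1645 ± 75.0 CPM, and Acadm, the medium-chain acyl-CoA dehydrogenase, from 3175 ± 604.7 to 1583 ± 71.8 CPM (log2 fold changes -0.55 and -1.0, edgeR adjusted p = 0.00142 and 0.000842). Hk2, a hexokinase named after its value was seen, fell by 1.17 on the log2 scale. The higher gene, also named after its value was seen, was Slc25a4, an ADP/ATP carrier also abundant in muscle (0.46, edgeR adjusted p = 0.00789). With the muscle covariate 7 targets were lower and 1 higher, and without control 514 the counts were 9 and 2.

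Of 25 known PPARα targets 23 were tested, of which 13 fell and 2 rose (median -0.49). Acadm, Cpt1b and Pdk4 are also on the ERR target list, so the lists are not separate sets of genes. With library sizes alone 10 fell and 4 rose (median -0.29). They included, chosen after its value was seen, the lipid droplet gene Plin2, with a log2 difference of -1.41 and an edgeR adjusted p of 0.00507. The higher genes, named after their values were seen, were Cpt1a (0.53) and Vnn1 (1.25). Leaving out control 517 or knockout 513, 515 or 516 also ended both calls, and leaving out control 518 or knockout 512 ended that of Cpt1a. Without control 514 or with the muscle covariate 13 were lower and 0 higher by edgeR. Ppara itself was called higher in those fits (log2 fold changes 0.86 and 1.28) and was not called in the main fit, as given above. Before adjustment 4 targets were higher, and DESeq2 called 3 and limma-voom 4.

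Genes selective for brown over white fat numbered 21, of which 12 fell and 1 rose (median -0.47). Scaled by library size only, 8 fell and 1 rose, around a median of -0.27. The list holds Ucp1, whose promoter drives the Cre, and genes already known to fall in these libraries. It shares Cox7a1 with the ERR targets and Gyk with the PPARα targets. The higher gene, named after its value was seen, was Bmp8b, a secreted factor that raises brown fat thermogenesis, which went from 0.388 to 5.36 CPM (log2 fold change 3.79, edgeR adjusted p = 0.000796). Of its exon bases 11.5% are shared with Gm17244 on the other strand. Cidea, Dio2, Adrb3 and Slc29a1 were among the 8 uncalled genes (chosen after their values were seen), with log2 fold changes of -0.26, 0.17, -0.47 and 0.18.

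For each member, the genes whose log2 CPM followed it most closely across the 8 libraries were listed as a description, out of 10748 tested genes averaging 5 CPM or more. The closest to Esrra were Tmem11, an inner mitochondrial membrane protein gene (Pearson r = 0.993), and Mrpl36, of the mitochondrial ribosome (r = 0.989). Both differed between the groups too, with log2 fold changes of -0.51 and -0.54, so the shared group difference enters these values. Socs5 (r = 0.976) was closest to Ppargc1a and Coq10a (r = 0.987) to Esrrg. The gene closest to Ppara was Mrm1, a mitochondrial rRNA methyltransferase gene (r = 0.985). All values rest on the same 8 libraries and their depth, and the highest of so many values is high by selection.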

How the data were processed

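Brown fat total RNA (Trizol) was sequenced by an Illumina protocol, per the labels. TopHat2 and mm10 are named for alignment, per the submitters' processing notes. HOMER's estimated counts, as deposited, cover exons of RefSeq models on both strands, per the file headers. Of the values 36.9% were not whole, and they were rounded. Transcript length was taken from the same table, per the file headers. The authors' deposited table of their own comparison holds scaled counts (a signal, not used for tests), a fold (ratio), log2 fold change, mean log2 CPM, FDR and p-value, per the file headers.

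Of 30521 rows, 829 named no gene and were left out (0.0608% to 0.0824% of a library's counts). One row per symbol, that with the highest total, left 23683936 to 28570627 counts per library. Genes were kept by filterByExpr (minimum count 10), scaled by TMM (factors 0.898 to 0.961 in controls, 1.05 to 1.1 in knockouts) and compared by the two-sided quasi-likelihood test of edgeR 4.0.16 (R 4.3.3), without covariates, with Benjamini-Hochberg adjustment over 14178 genes and a threshold of 0.05. SE is the size of the log2 fold change divided by the square root of F, and the 95% interval uses 6 degrees of freedom. Both are approximate. Ratios of 2 members used counts plus 0.5. The test was checked on simulated counts. Replicates were compared, and no pair agreed within sampling noise (lowest chi-square per degree of freedom 13.1). The labels do not say how the mice were related, so p-values reflect only how these samples vary, which may be technical.

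The members and gene lists were chosen with earlier results of these data known. Named genes were the members, Kdm1a, Ucp1, up to 3 genes with the smallest p per list and the 2 genes most like each member, of which a selection is given, and some items are not reported here. Exon overlaps are from GENCODE M21. Alternatives were other scalings, no filter, DESeq2 1.42.0, limma-voom (limma 3.58.1), a muscle covariate, summed rows and leaving out each library.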

Additional observations from a re-analysis of the deposited data

How the results depend on the processing

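No paired analysis was possible because the library numbers differ between the groups. The call of Esrra held under all 16 alternatives and that of Prdm16 under 10 of them, as given above. The count of members lower was 1 with library sizes alone and 1 to 2 without single libraries, and the count higher was 1 with the muscle covariate and 0 to 1 without single libraries. Over all genes, 2682 were lower and 2189 higher. Upper quartile factors gave 1625 lower, library sizes alone 930 lower and 4077 higher, and the muscle covariate 1427 higher. Uncalled members near 0 changed sign, and the cause was not tested: Ebf2 was at 0.06 and 0.17 and Ppargc1a at 0.07 and 0.18 with upper quartile factors and library sizes alone, Ppargc1a at 0.07 by limma-voom, and Ppargc1a, Zic1 and Irf4 at 0.16, -0.24 and -0.12 with the muscle covariate. Without single libraries the log2 fold changes ran from -0.22 to 0.21 for Ebf2, -0.25 to 0.17 for Ppargc1a, -0.15 to 0.20 for Zic1, -0.09 to 0.34 for Irf4 and -0.49 to 0.00213 for Lhx8. The ratios kept their direction and stayed short of the threshold. Lhx8 had the fewest counts per library, from 76.5.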

Other observations

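White selective genes, which PRDM16 is known to restrain, were called in both directions. Among all tested genes 18.9% were called lower and 15.4% higher in the main fit (2682 and 2189 genes). Higher genes numbered 4077 with library sizes alone, 2915 with upper quartile factors and 1427 with the muscle covariate. By DESeq2 and limma-voom they numbered 2545 and 2467. Of the 8 white selective genes tested, 1 was lower and 1 higher (median log2 fold change -0.03, or 0.17 with library sizes alone). The higher white selective genes numbered 3 with library sizes alone or upper quartile factors, 2 by DESeq2, and 0 with the muscle covariate or by limma-voom. Lep, the leptin gene, fell from 182.0 ± 32.2 to 105.0 ± 17.0 CPM (log2 fold change -0.79, edgeR adjusted p = 0.0044), and Nnat, an imprinted gene, rose from 21.1 ± 5.05 to 49.6 ± 21.5 CPM (log2 fold change 1.23, edgeR adjusted p = 0.0213), a call lost with the muscle covariate (0.11), without control 517, knockout 512 or knockout 515 (0.0504, 0.0553 and 0.0585) and by limma-voom (0.16). Dpt, a matrix protein gene of white fat stroma, had 0.46 and no call (edgeR adjusted p = 0.0721). Among endothelial markers, 1 of 6 was higher, with 4 higher with library sizes alone, 2 with upper quartile factors and 0 with the muscle covariate, and their sum was 969 to 1131 CPM in controls and 1006 to 1164 CPM in knockouts.

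The authors' deposited table gives the regulators' log2 fold changes as -0.84 for Prdm16 (FDR 0.00152), -0.49 for Esrra (FDR 0.0025), -0.36 for Esrrg (FDR 0.0954) and 0.40 for Ppara (FDR 0.483). In the authors' deposited table the FDR of Prdm16 is below that of Esrra, whereas here the adjusted p of Prdm16 was 0.0276 and that of Esrra 0.00163 by edgeR's quasi-likelihood test. The order of the pair thus differed between the analyses. The version of the test behind the authors' deposited table is not given in the sources used here, and the cause was not tested.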
